A study of Homo sapiens with 60 samples.

Results

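Cells of HT29, a line from a human colorectal adenocarcinoma, were exposed for 24 h to the ethanol (70%) extract of Scutellariae Radix, the dried root of skullcap, at its medium dose of 100 µg/mL. Their mRNA profile was set against that of vehicle-treated cells. The comparison takes 6 of the 60 libraries of the series, 3 of Scutellariae Radix at 100 µg/mL and 3 of vehicle, chosen by the column codes that the labels give for these groups. Used beside them were the same extract at 20 and 500 µg/mL (n = 3 each) and 5 other extracts at 100 µg/mL. These were the ethanol extracts of Pinelliae Tuber, Zingiberis Rhizoma (dried ginger) and Zingiberis Rhizoma Recens (fresh ginger), with n = 3 each, and the water extracts of the multi-herb formulas Sayeok-tang (n = 3) and Bojungikgi-tang (n = 2). Vehicle was 0.1% DMSO per the sample labels, although the series text gives 2%. No DMSO level is recorded for the extract groups, so whether DMSO was matched to vehicle is not known. All groups share the cell line, the medium and the 24 h exposure. All doses of Scutellariae Radix and of Pinelliae Tuber carry code set 10 in their labels and vehicle carries C1. Both gingers carry code set 9 and both formulas code set 8. Extract and code set therefore cannot be told apart in the contrast with vehicle. The contrast with the other 5 extracts also spans code sets, whereas the contrast with Pinelliae Tuber is within 1 code set. Whether replicates came from separate cultures is not stated in the labels, and p-values therefore reflect the spread among these libraries, which may be technical.

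Skullcap root is rich in flavones such as baicalin, baicalein and wogonin, none of which was measured in these libraries. Planar flavonoids are among the known ligands of the aryl hydrocarbon receptor (AhR), a transcription factor that waits in the cytoplasm, enters the nucleus when a ligand binds, pairs with ARNT and switches on genes of xenobiotic oxidation, CYP1A1 above all. In the gut the receptor senses compounds from food and microbes, and its targets include its own repressor AHRR and the ADP-ribosyltransferase TIPARP, which both feed back on it. NRF2, encoded by NFE2L2, is the sensor of electrophiles and oxidants. It is held by KEAP1, and once released it raises the genes of glutathione synthesis, quinone reduction and thioredoxin recycling.

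The promoters of 3 of the genes that rose show the letters each factor is known to read. These 3 were picked by hand as examples that hold the letters. Not every target that rose holds them, as counted below. The sequences are the 250 bases before the start of transcription from RefSeq on GRCh38.p14, read 5′ to 3′ along the gene, with GCGTG on either strand (the core of the AhR element) in capitals in CYP1A1 (chr15:74725529-74725778, minus strand) and ALDH1A3 (chr15:100879581-100879830, plus strand). In TXNRD1 the capitals mark TGACNNNGC on either strand (the core of the NRF2 element), at both starts that RefSeq lists, chr12:104215529-104215778, plus strand, and chr12:104286782-104287031, plus strand.
CYP1A1: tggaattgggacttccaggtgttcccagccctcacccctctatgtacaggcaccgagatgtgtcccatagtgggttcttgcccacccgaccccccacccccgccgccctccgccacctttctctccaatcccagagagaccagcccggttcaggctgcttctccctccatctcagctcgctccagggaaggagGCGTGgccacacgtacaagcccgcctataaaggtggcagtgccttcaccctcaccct
ALDH1A3: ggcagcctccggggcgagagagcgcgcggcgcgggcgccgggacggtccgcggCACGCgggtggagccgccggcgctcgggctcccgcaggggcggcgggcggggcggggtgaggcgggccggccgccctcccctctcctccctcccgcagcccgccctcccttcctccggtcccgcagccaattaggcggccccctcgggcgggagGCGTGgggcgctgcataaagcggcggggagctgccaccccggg
TXNRD1 upstream start: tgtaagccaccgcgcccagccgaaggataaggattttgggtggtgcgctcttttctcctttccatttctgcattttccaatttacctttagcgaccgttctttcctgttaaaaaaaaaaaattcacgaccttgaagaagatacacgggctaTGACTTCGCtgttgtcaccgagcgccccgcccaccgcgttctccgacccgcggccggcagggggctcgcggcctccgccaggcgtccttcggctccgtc
TXNRD1 downstream start: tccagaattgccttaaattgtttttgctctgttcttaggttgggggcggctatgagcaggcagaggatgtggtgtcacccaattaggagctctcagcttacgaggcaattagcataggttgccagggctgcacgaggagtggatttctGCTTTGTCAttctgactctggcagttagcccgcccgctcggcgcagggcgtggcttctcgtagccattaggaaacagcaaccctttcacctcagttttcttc

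The window of CYP1A1 holds 1 GCGTG and that of ALDH1A3 holds 2. Of all 35116 promoters of this length in the table, 32.2% hold GCGTG and 10.9% hold TGACNNNGC. Of the 9 AhR targets called higher below, 7 were matched by symbol to the table with 11 starts, and 7 of these starts hold GCGTG. CYP1B1 and ALDH3A1 were not matched. Of the 15 NRF2 targets called higher, 10 were matched with 12 starts, and 4 starts hold TGACNNNGC, those of GCLM, ME1 and TXNRD1. A match describes these letters in this window and is not evidence of binding.

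The 3 libraries of Scutellariae Radix held 22.4, 28.6 and 26.6 M counts and the 3 of vehicle 21.3, 35.8 and 26.6 M. CPM is counts per M counts, on total counts in this paragraph and on TMM-scaled library sizes in the following ones. Each of the 15 markers of colon epithelium reached 1 CPM in at least 1 of the 6 libraries. In contrast, 8 of 10 fibroblast, 8 of 12 leukocyte and 6 of 8 endothelial markers stayed below 1 CPM in all 6. COL1A2, PDGFRA, THY1, POSTN, CD3E, MS4A1, CDH5, ERG and EMCN had no count in any of the 6. The summed fibroblast markers were 2.82 to 3.36 CPM in Scutellariae Radix and 2.43 to 2.77 CPM in vehicle. The summed endothelial markers were 3.42 to 4.16 CPM in Scutellariae Radix and 2.35 to 2.82 CPM in vehicle. The part of these markers in the results was not tested. The summed leukocyte markers, mostly LYZ, were 1726 to 1816 CPM and 1725 to 1852 CPM in the same order. Vehicle replicate 1 stands apart, with 7.20% of its counts on ribosomal protein genes, against 6.10% and 5.80% in the other vehicle libraries and 5.50% to 5.72% in the medium dose. It is 1 of 3 libraries in the fit that stand apart, though not all by this share. Scutellariae Radix low-dose replicate 3 had 9.35% of its counts on ribosomal protein genes. Pinelliae Tuber high-dose replicate 2 had only 5.02% on these genes but 14.3% on genes of the mitochondrial genome.

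Scutellariae Radix at 100 µg/mL changed 1598 of 16763 genes tested (9.53%) against vehicle by the quasi-likelihood test of edgeR, with adjusted p below 0.05. Of these, 821 (4.90%) rose and 777 (4.64%) fell. Most changes were small: the median size of a called log2 fold change was 0.34, 42 genes rose and 86 fell by more than 1, and 9 rose and 9 fell by more than 2. In 37.5% of all genes tested the 3 libraries of one group lay beyond the 3 of the other, so that a gap between the groups is common here and is read beside the fold change. The median over all genes was -0.02. The number of calls depends on single libraries. It was 677 without vehicle replicate 1, 1038 without vehicle replicate 2, 901 and 878 without Scutellariae Radix replicates 2 and 3, and 3024 without the 3 libraries that stand apart. Of the 146 genes selected for naming, 145 were called, but a call was a condition of selection for nearly all of them. Of the 145, 141 were called in the same direction without the 3 libraries.

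**Figure D1:**
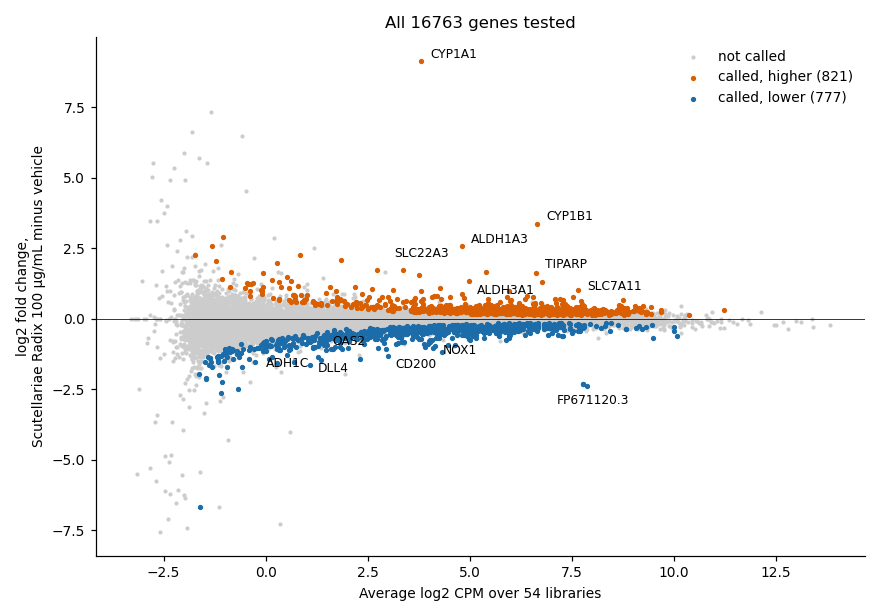
Log2 fold change of each of the 16763 genes tested, Scutellariae Radix at 100 µg/mL minus vehicle (vertical), against the average log2 CPM over 54 libraries (horizontal). Orange points are the 821 genes called higher and blue points the 777 called lower; CYP1A1 lies far above every other called gene, at 9.15, followed by CYP1B1 at 3.38.

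Among called genes with an average log2 CPM above 2, the 3 largest rises were in AhR targets. CYP1A1 (ENSG00000140465, chr15:74719542-74725610 on GRCh38), the oxidase that turns over planar aromatic compounds, had 183, 187 and 180.1 CPM in Scutellariae Radix, against 0.343, 0.168 and 0.494 CPM in vehicle. The vehicle libraries thus hold only 7, 6 and 13 counts of it, and the treated libraries lie far above all of them. The log2 fold change was 9.15 ± 0.19, adjusted p = 4.3e-34, or 569.6-fold. CYP1B1 (ENSG00000138061, chr2:38066973-38109902), a related oxidase that also hydroxylates oestrogens, had 498, 499 and 501 CPM in Scutellariae Radix, against 46.2, 46.8 and 50.5 CPM in vehicle. It was 10.4-fold higher (3.38 ± 0.08, adjusted p = 6.8e-32), and the 3 treated libraries agree to within a few CPM. ALDH1A3 (ENSG00000184254, chr15:100877714-100916626), which makes retinoic acid from retinaldehyde, had 116, 124 and 119.7 CPM in Scutellariae Radix, against 18.1, 20.4 and 21.0 CPM in vehicle, and was 6.03-fold higher (2.59 ± 0.07, adjusted p = 9.3e-30). TIPARP (ENSG00000163659, chr3:156673235-156706770) had 213, 215 and 214 CPM in Scutellariae Radix, against 63.9, 68.6 and 74.8 CPM in vehicle (1.63 ± 0.08, adjusted p = 1.3e-19). The groups did not overlap for any of these genes, but the largest rises and falls named here were chosen under this condition.

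Of the AhR targets, 9 rose and 0 fell of 13 tested, with a median log2 fold change of 0.77. ALDH3A1, an aldehyde dehydrogenase for aromatic and lipid aldehydes, rose (1.36 ± 0.10, adjusted p = 5.8e-14). So did EREG, the growth factor epiregulin (1.32 ± 0.11, adjusted p = 1.3e-11), and UGT1A6, which couples planar phenols to glucuronic acid (0.77 ± 0.07, adjusted p = 3.3e-11). NQO1, a quinone reductase (0.46 ± 0.08), and NFE2L2 (0.23 ± 0.06) rose less. The call of NFE2L2 ended without Scutellariae Radix replicate 2 or 3 or vehicle replicate 2 (0.22, 0.21 and 0.19). AHR itself had 115, 111 and 114 CPM in Scutellariae Radix, against 92.9, 108 and 115 CPM in vehicle (0.11 ± 0.10, adjusted p = 0.562). Its repressor AHRR had 5.95, 6.24 and 5.30 CPM, against 4.85, 5.81 and 4.59 CPM (0.19 ± 0.12, adjusted p = 0.345). Neither difference passed the test. CYP1A2, which lies head to head with CYP1A1 and resembles it, was below the filter on low counts. The treated libraries held 3, 8 and 9 counts and the vehicle libraries 0 in all. CYP1A2 was thus at least 7.20-fold higher when vehicle is set to the limit of 3 counts over the group. Reads that fit both genes could be split between them by the counting. The count of 9 was 10 without the 3 libraries that stand apart, and 8 or 9 with each of the 6 libraries left out.

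**Figure D2:**
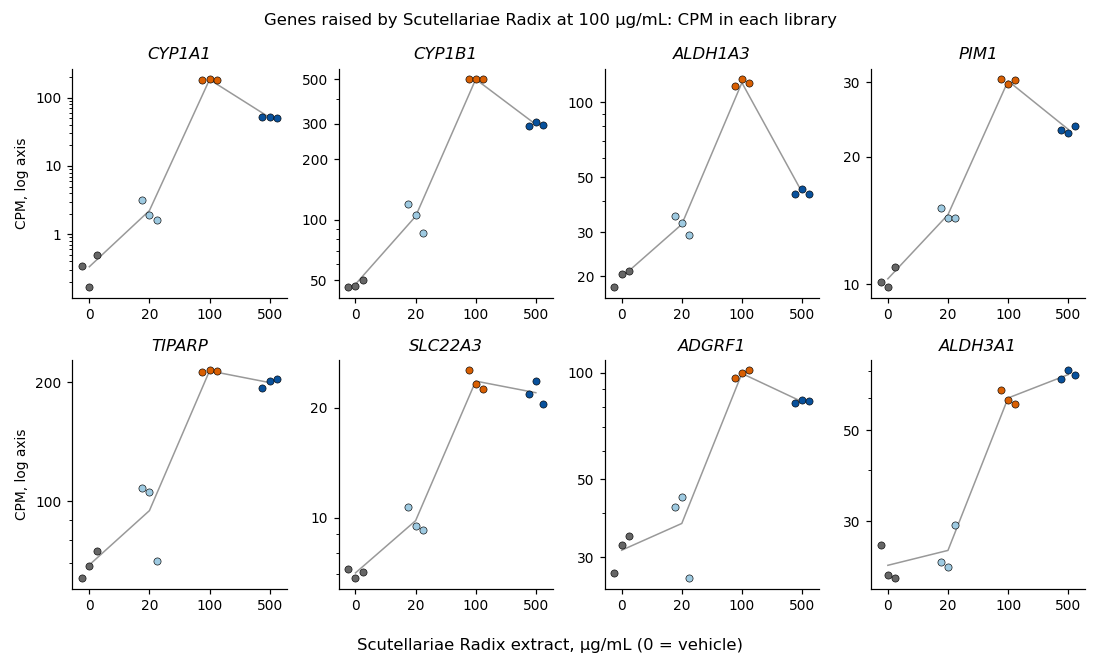
CPM (log axis) of 8 genes that rose, in each of 3 libraries of vehicle (0) and of Scutellariae Radix at 20, 100 and 500 µg/mL; lines join the means. CYP1A1, CYP1B1, ALDH1A3 and PIM1 are highest at 100 µg/mL, with CYP1A1 at a mean of 184 CPM there and 51.1 CPM at 500 µg/mL, while ALDH3A1 differs by 0.19 ± 0.09 (log2) between 500 and 100 µg/mL, with no call.

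Several of these genes were highest at the medium dose. CYP1A1 averaged 0.335 ± 0.163 CPM in vehicle, 2.22 ± 0.820 at 20, 184 ± 3.58 at 100 µg/mL (SD, n = 3 each), and had 52.3, 51.2 and 49.8 CPM at 500 µg/mL. Between 500 and 100 µg/mL it fell 3.59-fold (-1.85 ± 0.11, adjusted p = 2.7e-16), in a contrast that calls 592 genes (3.53%), 273 higher (1.63%) and 319 lower (1.90%). Between 100 and 20 µg/mL it rose (6.35 ± 0.15, adjusted p = 1.2e-31), in a contrast that calls 710 genes (4.24%), 362 higher (2.16%) and 348 lower (2.08%). CYP1B1 followed with 47.8 ± 2.31, 104 ± 17.0, 499 ± 1.38 and 298 ± 6.17 CPM and ALDH1A3 with 19.8 ± 1.53, 32.4 ± 2.81, 119.9 ± 4.08 and 43.6 ± 1.03 CPM over the same doses, in the same order. Both were lower at 500 than at 100 µg/mL, by -0.75 ± 0.07 for CYP1B1 and -1.46 ± 0.07 for ALDH1A3. PIM1, a serine/threonine kinase (-0.38 ± 0.07), and PTGS2, the inducible cyclooxygenase (-0.48 ± 0.09), had the same order. Other genes had similar values at both doses: TIPARP differed by -0.10 ± 0.08, adjusted p = 0.757 between 500 and 100 µg/mL, SLC22A3 by -0.10 ± 0.07, adjusted p = 0.679 and EREG by 0.07 ± 0.11, adjusted p = 0.937, none of which passed the test. Of the 13 AhR targets tested, 3 were lower at 500 than at 100 µg/mL (CYP1A1, CYP1B1 and ALDH1A3) and 1 was higher (SLC7A5). Without the 3 libraries that stand apart, of which 1 is a low-dose library, the step from 20 to 100 µg/mL of CYP1A1 was 6.19 ± 0.12.

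Further large rises were in genes outside the AhR list. SLC22A3, an organic cation transporter, had 25.4, 23.2 and 22.5 CPM in Scutellariae Radix, against 7.25, 6.82 and 7.10 CPM in vehicle (1.75 ± 0.08, adjusted p = 5.3e-21). ADGRF1, an adhesion G protein-coupled receptor, had 97.0, 100.0 and 102 CPM, against 27.2, 32.6 and 34.6 CPM (1.66 ± 0.10, adjusted p = 2.2e-16). PIM1 had 30.6, 29.8 and 30.4 CPM, against 10.1, 9.85 and 11.0 CPM (1.55 ± 0.07, adjusted p = 1.9e-20). These were rises of 3.36-, 3.16- and 2.94-fold. The lack of overlap between the groups was a condition of choice for all 3. GPAT3, which starts glycerolipid synthesis (1.09 ± 0.08, adjusted p = 8.1e-14), and BMF, a BH3-only protein that promotes apoptosis (1.07 ± 0.11, adjusted p = 2.9e-09), rose 2.13- and 2.10-fold. The RNAs annotated as antisense, AC092115.2 (1.13 ± 0.18, adjusted p = 2.6e-05) and AC020909.3 (1.74 ± 0.50, adjusted p = 0.0205) were also among the largest rises. AC020909.3 had 8.72, 7.37 and 7.87 CPM in Scutellariae Radix, against 4.75, 1.94 and 0.873 CPM in vehicle, with the vehicle libraries spread over several fold. Its call ended without Scutellariae Radix replicate 1 or 3 (log2 fold changes 1.68 and 1.75) and without vehicle replicate 2 or 3 (1.58 and 1.34). The strand setting of the counting is not known, so that reads of overlapping genes on opposite strands cannot be told apart.

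Among the conjugating enzymes that act after the oxidases, 5 rose and 2 fell of 22 tested, with a median log2 fold change of -0.06. The 2 falls, in UGT2B15 and PAPSS2, became 0 or 1 with each of the 6 libraries left out. The rises were in UGT1A6, UGT1A1, UGT1A10, UGT1A8 and UGDH, which makes the UDP-glucuronic acid they use. The call of UGDH (0.30 ± 0.08) ended without vehicle replicate 1 (0.28). UGT1A10 had 478, 497 and 489.8 CPM in Scutellariae Radix, against 362, 345 and 348 CPM in vehicle (0.47 ± 0.05, adjusted p = 1.7e-08). UGT1A1, the bilirubin enzyme, had 67.1, 70.5 and 66.5 CPM, against 52.5, 48.0 and 43.2 CPM (0.51 ± 0.07, adjusted p = 2.1e-06). The UGT1A genes share all but their first exon, so the split of reads between them is uncertain. Every library of the treated group lay above every vehicle library for each of these 4. The efflux pump ABCG2, which exports conjugates, was 0.43 ± 0.09, adjusted p = 0.00147 against vehicle but 0.10 ± 0.07, adjusted p = 0.543 against the other 5 extracts, which did not pass the test. In the oxidation of retinoids and alcohols, 5 rose and 2 fell of 20 tested, with a median log2 fold change of 0.04. ALDH3A2, the fatty aldehyde dehydrogenase, rose (0.70 ± 0.07, adjusted p = 2.0e-09) beside ALDH1A3 and ALDH3A1. ADH1C, a class I alcohol dehydrogenase, fell, with 0.954, 0.705 and 1.14 CPM in Scutellariae Radix, against 2.65, 2.81 and 2.28 CPM in vehicle (-1.47 ± 0.22, adjusted p = 7.8e-06). DHRS9 (1.39 ± 0.23) and RDH10 (0.39 ± 0.08), which oxidise retinol to retinaldehyde, rose and ADH6 (-0.52 ± 0.11) fell. These 3 were chosen after their values were seen.

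In the NRF2 list rises were moderate, and 11 members did not pass the test. Of this list 15 rose and 0 fell of 26 tested, with a median log2 fold change of 0.33. SLC7A11, the cystine importer that feeds glutathione synthesis, had 289, 298 and 299.6 CPM in Scutellariae Radix, against 135, 148 and 155 CPM in vehicle (1.02 ± 0.12, adjusted p = 4.0e-08). GCLC, the catalytic subunit of the rate-limiting enzyme of glutathione synthesis, had 112, 117 and 115 CPM, against 72.5, 77.2 and 82.6 CPM (0.57 ± 0.07, adjusted p = 5.1e-07). TXNRD1, thioredoxin reductase, had 556, 570.2 and 552 CPM, against 334, 352 and 381 CPM (0.65 ± 0.07, adjusted p = 1.2e-08). In each of these the treated libraries lay above all vehicle libraries. AKR1B10, an aldo-keto reductase (0.71 ± 0.09, adjusted p = 1.3e-07), HMOX1, haem oxygenase (0.63 ± 0.10, adjusted p = 9.8e-06), and ME1, which makes NADPH (0.58 ± 0.09, adjusted p = 3.5e-05), rose too. The count was 21 without the 3 libraries that stand apart and 12 to 13 with each of the 6 libraries left out. The dose order differs from that of CYP1A1: of the 26 NRF2 targets, 17 were higher at 500 than at 100 µg/mL, against 1.63% of all genes, and 0 were lower. SLC7A11 averaged 146 ± 9.93 CPM in vehicle, 158 ± 22.5 at 20, 296 ± 5.88 at 100 and 483 ± 4.84 at 500 µg/mL. GCLC averaged 77.4 ± 5.04, 82.7 ± 4.22, 115 ± 2.57 and 168 ± 6.85 CPM in the same order.

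Genes of the integrated stress response, which ATF4 raises when amino acids are short or the endoplasmic reticulum is stressed, changed by little: 11 rose and 0 fell of 29 tested, with a median log2 fold change of 0.20. ASNS, asparagine synthetase, had 84.1, 85.8 and 84.3 CPM in Scutellariae Radix, against 61.0, 60.9 and 58.8 CPM in vehicle (0.49 ± 0.06, adjusted p = 7.3e-08). TRIB3, a pseudokinase target of ATF4 and CHOP (0.40 ± 0.07, adjusted p = 0.00023), XPOT, the tRNA exporter (0.36 ± 0.06, adjusted p = 3.7e-05), and ATF3 (0.64 ± 0.14, adjusted p = 0.00244) rose as well. DDIT3, which encodes CHOP, had 7.31, 6.49 and 5.75 CPM, against 6.37, 6.59 and 6.57 CPM (-0.00 ± 0.13, adjusted p = 0.991), and ATF4 itself differed by -0.06 ± 0.09, adjusted p = 0.729. Both were chosen after their values were seen, and neither passed the test. The count of 11 was 7 without Scutellariae Radix replicate 2 and 16 without the 3 libraries that stand apart. The lists share members: SLC7A11 and SLC3A2 also belong to the NRF2 list and SLC7A5 to the AhR list. At 500 µg/mL, 17 of the 29 were higher than at 100 µg/mL, against 1.63% of all genes. ASNS was higher by 0.75 ± 0.06 and TRIB3 by 0.87 ± 0.07. For the lists that follow, 4.90% of all genes rose and 4.64% fell against vehicle. Of 20 amino acid transporters, 5 rose and 2 fell. SLC1A4, a carrier of small neutral amino acids (0.60 ± 0.07, adjusted p = 3.5e-08), and SLC38A2 (0.47 ± 0.11, adjusted p = 0.00363) were among the rises. Without the 3 libraries that stand apart, SLC1A4 differed from Pinelliae Tuber by 0.17 ± 0.07 and SLC38A2 by 0.06 ± 0.05, with no call. In the same fit they were 0.23 ± 0.05 and 0.13 ± 0.04 against the other 5 extracts, both called. The 5 rises were 3 without Scutellariae Radix replicate 3 or vehicle replicate 1 and 8 without the 3 libraries that stand apart, and the 2 falls were 1 without vehicle replicate 1. Of 20 tRNA synthetases 7 rose and 1 fell. The 7 were 3, 2 and 4 without Scutellariae Radix replicate 3, vehicle replicate 1 and vehicle replicate 2, and 12 without the 3 libraries. Of 23 chaperones of the endoplasmic reticulum 7 rose, HSPA5 by 0.28 ± 0.06, and of 19 heat shock genes 6 rose, HSPH1 by 0.38 ± 0.05 and HSPA8 by 0.30 ± 0.04. None fell in either list. These 2 counts were 4 and 5 without vehicle replicate 1 and 12 and 11 without the 3 libraries. Against Pinelliae Tuber, within 1 code set, 0 of the 23 chaperones, 1 of the 19 heat shock genes and 1 of the 20 tRNA synthetases were higher. None was lower, and 1.38% of all genes were higher in that contrast. Whether it differs from the contrast with vehicle was not tested.

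In a list of ligands, receptors and inhibitors around the epidermal growth factor receptor, 7 rose and 0 fell of 10 tested, with a median log2 fold change of 0.42. The ligands AREG, EREG and TGFA were among the 7. AREG, amphiregulin, had 70.5, 69.4 and 69.2 CPM in Scutellariae Radix, against 50.0, 40.6 and 37.3 CPM in vehicle (0.71 ± 0.09, adjusted p = 5.8e-07), and EREG 204, 205 and 199 CPM, against 75.6, 80.1 and 87.0 CPM. Treated libraries lay above all vehicle libraries for both, and by more for EREG, which was chosen under this condition. MET, the receptor of hepatocyte growth factor (0.47 ± 0.08, adjusted p = 7.9e-05), and ERRFI1, an inhibitor of the EGF receptor (0.37 ± 0.07, adjusted p = 0.00015), rose as well. Of 27 immediate early and MAPK feedback genes 4 rose and 1 fell, including PHLDA1 (0.57 ± 0.05, adjusted p = 4.6e-11). The 4 were 2 without Scutellariae Radix replicate 1 or 2 or vehicle replicate 2 or 3, and 8 without the 3 libraries that stand apart. PTGS2 had 26.7, 25.8 and 27.9 CPM, against 14.3, 15.0 and 16.4 CPM (0.81 ± 0.09, adjusted p = 2.8e-08). With BIRC3, an inhibitor of apoptosis (0.49 ± 0.10, adjusted p = 0.00071), and NFKBIZ (0.46 ± 0.07, adjusted p = 2.1e-05) it made up the 3 rises among 26 NF-kB and chemokine genes. IL18 was the 1 fall (-0.61 ± 0.17, adjusted p = 0.0171), with no call without Scutellariae Radix replicate 2 or 3 or vehicle replicate 1 or 2 (log2 fold changes of -0.59 to -0.55).

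Falls among interferon-induced genes were numerous. Of this list 0 rose and 15 fell of 38 tested, with a median log2 fold change of -0.51. IFIT1, which binds viral RNA, had 3.86, 3.31 and 3.71 CPM in Scutellariae Radix, against 8.53, 6.17 and 8.28 CPM in vehicle (-1.07 ± 0.17, adjusted p = 3.1e-05). OAS2, an oligoadenylate synthetase, had 3.27, 2.50 and 2.57 CPM, against 6.67, 4.32 and 6.34 CPM (-1.04 ± 0.23, adjusted p = 0.00264). IRF9, the DNA-binding part of the interferon-activated complex, had 8.08, 8.39 and 8.40 CPM, against 16.6, 14.1 and 15.1 CPM (-0.88 ± 0.13, adjusted p = 8.1e-06). These levels are low in all libraries, and all treated libraries lay below all vehicle libraries, which was a condition of choice for IFIT1 and OAS2. MX1 (-0.81 ± 0.17, adjusted p = 0.00117) and OASL (-0.64 ± 0.12, adjusted p = 0.0003) fell too. The count of 15 was 8 without vehicle replicate 1, 13 without the 3 libraries that stand apart and up to 17 with another library left out. Against the other 5 extracts, which hold no vehicle library, 26 of the 38 were lower and 0 higher. In that contrast 2.82% of all genes were lower and 2.69% higher. IFIT1 averaged 7.66 ± 1.29 CPM in vehicle, 7.76 ± 1.82 at 20, 3.63 ± 0.283 at 100 and 4.38 ± 0.316 at 500 µg/mL.

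**Figure D3:**
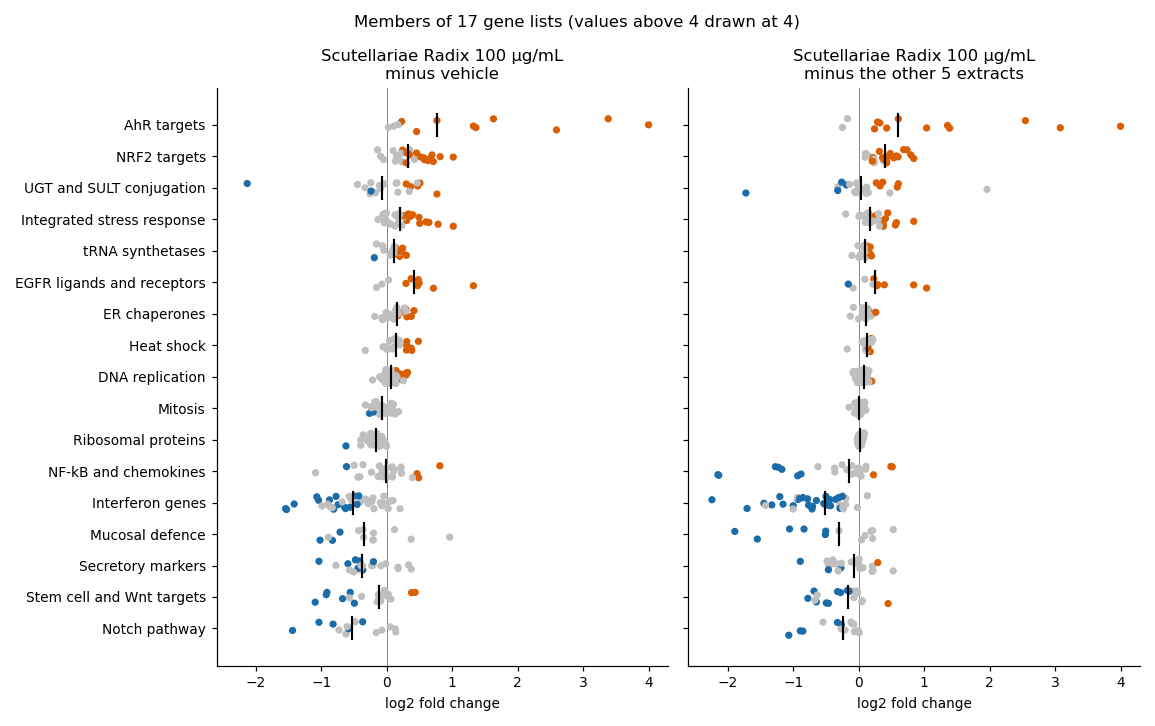
Log2 fold change of each tested member of 17 gene lists for Scutellariae Radix at 100 µg/mL minus vehicle (left) and minus the mean of the other 5 extracts at that dose (right); orange and blue points passed the test as higher and lower, grey points did not, and bars are list medians. AhR and NRF2 targets lie to the right and interferon genes to the left in both panels, while ribosomal protein and mitosis genes, left of 0 against vehicle, centre on 0 against the other extracts.

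Notch genes and lineage factors of the intestinal crypt were among the named falls. DLL4, a Notch ligand, had 2.23, 2.64 and 2.61 CPM in Scutellariae Radix, against 6.62, 6.54 and 7.25 CPM in vehicle (-1.44 ± 0.14, adjusted p = 4.0e-10). ATOH1, the transcription factor that commits intestinal cells to the secretory lineage, had 2.45, 2.04 and 2.27 CPM, against 4.85, 4.77 and 4.21 CPM (-1.04 ± 0.19, adjusted p = 0.00017). For both genes the treated libraries lay below all vehicle libraries, which was a condition of their choice. In bulk RNA fewer cells with a gene and less RNA per cell cannot be told apart. HES6 (-0.82 ± 0.12, adjusted p = 2.3e-06) and LFNG, which adds sugars to Notch (-0.37 ± 0.08, adjusted p = 0.001), fell with them: 0 rose and 5 fell of 14 tested, with a median log2 fold change of -0.53. Among stem cell and Wnt genes, 2 rose and 6 fell of 20 tested, with a median log2 fold change of -0.12. EPHB3, a crypt ephrin receptor (-0.91 ± 0.11, adjusted p = 3.0e-08), LRIG1, a restraint on growth factor receptors (-0.49 ± 0.08, adjusted p = 6.7e-05), and SOX4 (-0.56 ± 0.10, adjusted p = 0.00023) fell. LGR5, the crypt stem cell marker, was higher than in vehicle (0.38 ± 0.08, adjusted p = 0.00079) and differed from the other extracts by 0.06 ± 0.06, with no call. AXIN2, a direct Wnt target chosen after its value was seen, was -0.15 ± 0.07, adjusted p = 0.189, with no call. The 2 rises were 1 without Scutellariae Radix replicate 1 or 2 or vehicle replicate 2 or 3. Of 22 secretory markers 7 fell and 0 rose, against 3 and 1 in the contrast with the other extracts. In the latter contrast 2.82% of all genes were lower and 2.69% higher. The 7 were 4 without Scutellariae Radix replicate 2 or 3 or vehicle replicate 1 or 2. AGR2, a protein disulphide isomerase of mucus cells, fell against vehicle (-0.41 ± 0.09, adjusted p = 0.00295). REG4, a secreted lectin, fell against vehicle (-0.37 ± 0.08, adjusted p = 0.00376) but differed from the other extracts by 0.07 ± 0.07, adjusted p = 0.739, with no call. Without vehicle replicate 1 the call of REG4 against vehicle ended, at -0.29. Of 18 enterocyte markers 2 rose and 5 fell. The glucose carrier SLC5A1 (-0.52 ± 0.08, adjusted p = 1.2e-05) and carbonic anhydrase CA2 (-0.46 ± 0.10, adjusted p = 0.00203) fell, and the adhesion proteins CDH17 (0.50 ± 0.12, adjusted p = 0.00535) and CEACAM6 (0.39 ± 0.07, adjusted p = 0.00014) rose. The 5 falls were 3 without Scutellariae Radix replicate 1, 2 or 3.

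**Figure D4:**
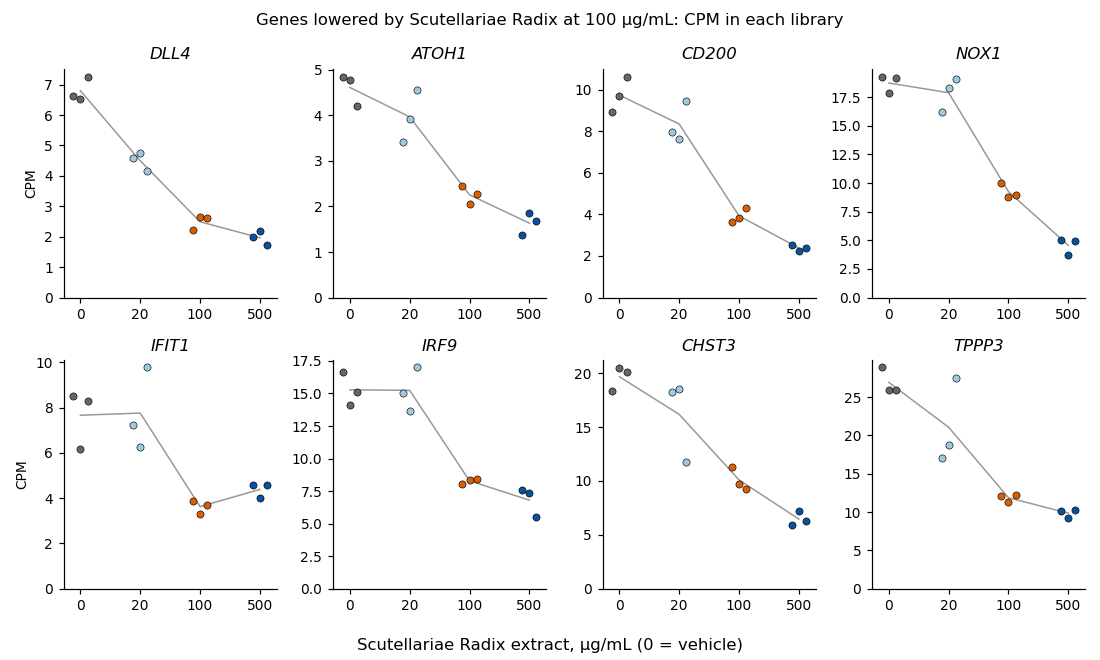
CPM (linear axis from 0) of 8 genes that fell, in each of 3 libraries of vehicle (0) and of Scutellariae Radix at 20, 100 and 500 µg/mL; lines join the means. At 100 µg/mL all 3 libraries lie below all 3 vehicle libraries for each gene, a condition of choice for all but IRF9, and CD200, NOX1 and CHST3 are lower again at 500 µg/mL.

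Further named falls belonged to no single list. CD200, an immune-regulatory surface glycoprotein, had 3.63, 3.84 and 4.31 CPM in Scutellariae Radix, against 8.92, 9.68 and 10.6 CPM in vehicle (-1.31 ± 0.09, adjusted p = 4.9e-15), and was lower still at 500 µg/mL (-0.73 ± 0.11 against 100 µg/mL). NOX1, the superoxide-producing oxidase of colon epithelium, had 10.0, 8.74 and 8.97 CPM, against 19.2, 17.8 and 19.1 CPM (-1.02 ± 0.09, adjusted p = 1.3e-11). It averaged 18.7 ± 0.772 CPM in vehicle, 17.9 ± 1.48 at 20, 9.25 ± 0.693 at 100 and 4.57 ± 0.699 at 500 µg/mL. NOX1 thus stayed near the vehicle level at 20 µg/mL and was lower at each of the upper doses, by -1.02 ± 0.10 between 500 and 100 µg/mL. TPPP3, which binds tubulin (-1.18 ± 0.11, adjusted p = 4.6e-11), CHST3, a chondroitin sulfotransferase (-0.97 ± 0.10, adjusted p = 4.2e-09), and the long non-coding RNA LINC00261 (-1.01 ± 0.11, adjusted p = 4.0e-09) fell. Their lack of overlap between the groups was a condition of their choice. BTG2 (-0.69 ± 0.08, adjusted p = 5.6e-08) and SESN1 (-0.61 ± 0.08, adjusted p = 2.2e-07), targets of p53 that restrain growth, fell. CDKN1A, the p53 target that halts the cell cycle, was chosen after its value was seen and differed by 0.24 ± 0.09, adjusted p = 0.068, with no call. In this list 0 rose and 3 fell of 22, and 4 rose without the 3 libraries that stand apart. HT29 is a p53-mutant line, and the activity of p53 was not measured. CTGF, a target of YAP (-0.98 ± 0.14, adjusted p = 4.3e-06), and MMP7, a matrix protease (-0.42 ± 0.10, adjusted p = 0.00536), were lower too. Among genes with an average log2 CPM above 2, the largest falls by size were in FP671120.3, FP236383.3 and FP236383.2, near-identical non-coding copies on chromosome 21. FP671120.3 had 201, 229.9 and 195 CPM in Scutellariae Radix, against 998, 1120.0 and 1132 CPM in vehicle (-2.38 ± 0.37, adjusted p = 2.5e-05). It differed from the other 5 extracts by 0.38 ± 0.27, adjusted p = 0.57, with no call. Its 2 copies have the same CPM as it has in every treated library, so their counts are uncertain.

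Growth and housekeeping lists moved little. Of 36 DNA replication genes 8 rose and 0 fell, RRM2 by 0.30 ± 0.05 and CDC6 by 0.24 ± 0.06. The 8 were 5, 4 and 4 without Scutellariae Radix replicates 1, 2 and 3, 3 without vehicle replicate 1 and 4 without vehicle replicate 2. Of the 36, 3 were higher against the other 5 extracts and 0 against Pinelliae Tuber, with none lower in either contrast. Of 30 mitosis genes 0 rose and 3 fell, AURKA (-0.20 ± 0.05, adjusted p = 0.00452), CDCA8 (-0.26 ± 0.05, adjusted p = 0.00026) and CCNB2 (-0.20 ± 0.06, adjusted p = 0.0148), and 10 fell without the 3 libraries that stand apart. The call of CCNB2 ended without Scutellariae Radix replicate 3 or vehicle replicate 1 or 3 (-0.19 to -0.16). Against the other 5 extracts AURKA differed by -0.03 ± 0.04 and CDCA8 by 0.00 ± 0.04, and 0 of the 30 were called. Of 33 ribosomal protein genes only RPLP1 was called (-0.62 ± 0.16, adjusted p = 0.0101), with no call without Scutellariae Radix replicate 3 or vehicle replicate 1 (-0.59 and -0.44), and it was 0.01 ± 0.13 against the other extracts. The share of counts on ribosomal protein genes moves with these groups, as given above, and its part in the falls was not tested. Of 27 hypoxia and glycolysis genes 6 rose and 1 fell, SLC2A1, the glucose carrier, by 0.39 ± 0.04. The 6 were 3 without Scutellariae Radix replicate 2 or vehicle replicate 1, and the 1 fall was 0 without vehicle replicate 1. Of 25 cholesterol synthesis genes 3 rose and 1 fell, SQLE, squalene epoxidase, by 0.24 ± 0.04. The 3 were 6 without the 3 libraries that stand apart, and the 1 fall was 0 without Scutellariae Radix replicate 1 or 3 or vehicle replicate 1. Among nuclear receptors, PPARG rose slightly (0.34 ± 0.05, adjusted p = 1.8e-06) and was lower again at 500 µg/mL (-0.27 ± 0.05 against 100 µg/mL).

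The same 3 libraries were then set against the mean of the other 5 extracts at 100 µg/mL, a contrast that holds no vehicle library. Of these extracts only Pinelliae Tuber shares code set 10, so extract and code set are not fully told apart in this contrast. It called 924 genes (5.51%), of which 451 (2.69%) were higher and 473 (2.82%) lower in Scutellariae Radix. Among called genes with an average log2 CPM above 2 and no overlap between Scutellariae Radix and the other 14 libraries, the 5 largest rises were CYP1A1 (8.37 ± 0.10, adjusted p = 1.7e-44), CYP1B1 (3.08 ± 0.05), ALDH1A3 (2.55 ± 0.04), SLC22A3 (1.57 ± 0.05) and ADGRF1 (1.51 ± 0.07). CYP1A1 ranged over 0.307 to 1.07 CPM in the 14 libraries of the other extracts and CYP1B1 over 54.8 to 63.9 CPM, far below the levels with Scutellariae Radix given above. Under the same limits the 5 largest falls were OAS2 (-1.45 ± 0.19, adjusted p = 4.3e-07), IFIT1 (-1.20 ± 0.14), CD200 (-1.19 ± 0.07), DLL4 (-1.07 ± 0.12) and NOX1 (-1.06 ± 0.07). In 7.55% of all genes tested the Scutellariae Radix libraries lay beyond all 14 of the others. The 10 genes named above were chosen under this condition, so their lack of overlap is not a separate result. By list, 11 of 13 AhR targets, 19 of 26 NRF2 targets and 11 of 29 integrated stress response genes were higher and none of them lower. The AhR count includes AHRR, at 0.32 ± 0.09, adjusted p = 0.029, which was not called against vehicle. Its call ended without Scutellariae Radix replicate 1 or 2 (0.31 and 0.27) or Bojungikgi-tang replicate 3 (0.29). Leaving out Scutellariae Radix replicate 1, 2 or 3 lowered the 924 calls to 554, 518 and 529, and they were 2536 without the 3 libraries that stand apart.

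**Figure D5:**
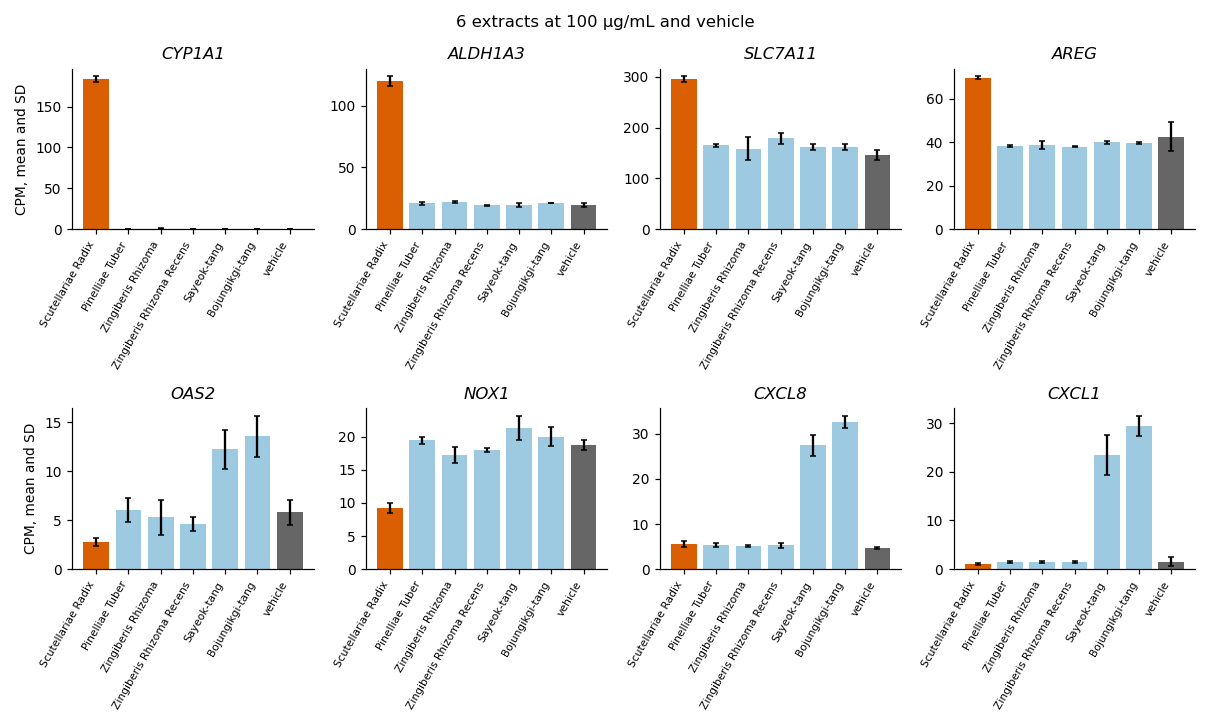
CPM (mean and SD, n = 3, except n = 2 for Bojungikgi-tang) of 8 genes after 24 h with each of 6 extracts at 100 µg/mL, Scutellariae Radix in orange, and with vehicle in grey. CYP1A1, ALDH1A3, SLC7A11 and AREG are high with Scutellariae Radix, OAS2 and NOX1 are lowest with it, and CXCL8 and CXCL1 are high with the water extracts Sayeok-tang and Bojungikgi-tang.

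The chemokine genes CXCL1 and CXCL8 were at their highest in the water extracts. CXCL1, a neutrophil chemokine, averaged 1.06 ± 0.228 CPM in Scutellariae Radix, 23.4 ± 4.04 CPM in Sayeok-tang, 29.4 ± 2.03 CPM in Bojungikgi-tang, 1.45 ± 0.165 CPM in Pinelliae Tuber and 1.52 ± 0.891 CPM in vehicle. Its difference from the mean of the other extracts, -2.14 ± 0.21, adjusted p = 1.9e-10, stands beside high levels in both water extracts. It was -0.48 ± 0.28, adjusted p = 0.601 against Pinelliae Tuber and -0.44 ± 0.28, adjusted p = 0.343 against vehicle, neither of which passed the test. CXCL8 had the same pattern, with 5.54 ± 0.695 CPM in Scutellariae Radix, 27.5 ± 2.36 CPM in Sayeok-tang, 32.6 ± 1.35 CPM in Bojungikgi-tang and 4.74 ± 0.270 CPM in vehicle (0.23 ± 0.12, adjusted p = 0.245 against vehicle, with no call). Both chemokines were chosen after their values were seen. PIGR, the carrier of secretory antibodies, fell against vehicle (-0.83 ± 0.25, adjusted p = 0.037) and more against the other extracts (-1.89 ± 0.19). It stood at 0.273, 0.634 and 0.643 CPM in Scutellariae Radix and 1.13, 0.814 and 0.949 CPM in vehicle. Its call against vehicle ended without Scutellariae Radix replicate 1 or vehicle replicate 1 or 3 (-0.83 to -0.56) and without the 3 libraries that stand apart (-0.71 ± 0.28).

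Against Pinelliae Tuber at 100 µg/mL, the extract of the same solvent, dose and code set, 512 genes were called (3.05%), 232 (1.38%) higher and 280 (1.67%) lower in Scutellariae Radix. CYP1A1 had 183, 187 and 180.1 CPM in Scutellariae Radix, against 0.542 ± 0.206 CPM (mean ± SD) in Pinelliae Tuber (8.38 ± 0.18, adjusted p = 1.0e-33), and ALDH1A3 differed by 2.52 ± 0.07, adjusted p = 2.6e-29. SLC7A11 (0.84 ± 0.12, adjusted p = 2.5e-06), AREG (0.87 ± 0.09, adjusted p = 7.6e-09) and TXNRD1 (0.55 ± 0.07, adjusted p = 7.7e-07) were higher. CD200 (-1.32 ± 0.09, adjusted p = 2.5e-15), NOX1 (-1.08 ± 0.09, adjusted p = 2.1e-12), DLL4 (-1.07 ± 0.14, adjusted p = 8.2e-07) and OAS2 (-1.12 ± 0.23, adjusted p = 0.00157) were lower. All 7 differ here between groups that share the code set. By list, 10 of 13 AhR targets and 19 of 26 NRF2 targets were higher and 15 of 38 interferon genes lower, with none in the other direction. Of 25 cholesterol synthesis genes, 19 were higher than in Pinelliae Tuber and 0 lower, against 3 and 1 in the contrast with vehicle. Whether the 2 contrasts differ was not tested. The 512 calls were 355 to 382 with each of the 6 libraries left out and 1374 without the 3 libraries that stand apart.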

How the data were processed

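HT29 libraries were made from total RNA with a directional mRNA kit, per the labels' protocols. The authors deposited 1 table of RSEM expected counts for 60675 genes. Per the submitters' processing notes, RSEM 1.3.3 and STAR 2.7.3a were used with hg38, beside Trim Galore 0.6.5 and FastQC 0.11.9. Sources used here name neither an annotation release nor a strand setting. Another 210 columns of the table were not used. The codes in the sample labels gave each column its sample, and expected counts were rounded to whole numbers.

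The main test was edgeR 4.0.16 (quasi-likelihood, TMM, robust) in R 4.3.3 on 54 libraries of 19 groups with at least 2 libraries, which share 1 estimate of the spread, over 16763 genes kept by filterByExpr, with Benjamini-Hochberg adjustment at 0.05. The ± of a log2 fold change is its standard error. Depth was 18.3 to 35.8 M counts per library in the fit, so that low counts limit genes near 1 CPM. CPM is not scaled to gene length, so that levels are compared within a gene only. Symbols and positions came from GENCODE 29, and promoters from RefSeq. Alternatives were DESeq2 1.42.0, its size factors, no filter on low counts, only the libraries compared, a replicate block, each library left out and, against vehicle, the 3 libraries that stand apart left out; for the other contrasts this last one was added after seeing the data. The script was tested on simulated data.

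The comparison and the 42 gene lists were chosen with earlier results of these data known. Named were the 12 largest rises and 12 largest falls against vehicle among called genes with an average log2 CPM above 2 and no overlap, the 5 largest each way against the other extracts, up to 4 called members per list by smallest p, and CYP1A1, CYP1B1, TIPARP, AHR and ABCG2. List members named beside this rule were chosen after their values were seen. Groups of 1 library were not analysed here.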

Additional observations from a re-analysis of the deposited data

How the results depend on the processing

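Of 145 named genes called against vehicle, 105 were called in the same direction with each of the 6 libraries left out in turn and 95 in every alternative run, and none of the named genes changed sign past the threshold in any comparison. The 1598 calls against vehicle ranged over 677 to 1805 with 1 library left out, and 666 of them (41.7%) were also called without vehicle replicate 1. They were 1944 by DESeq2, 1626 with its size factors, 1726 with no filter on low counts, 2464 in a fit of only the 6 libraries and 3024 without the 3 libraries that stand apart. The 924 calls against the other extracts ranged over 518 to 944 with 1 library left out and were 1848 in a fit of only the libraries compared and 2536 without the 3 libraries. The 512 calls against Pinelliae Tuber ranged over 355 to 382, 2257 and 1374 in the same alternatives. Leaving out the 3 libraries was chosen after seeing the data for these 2 contrasts. The fit to fewer libraries has its own estimate of the spread.

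Replicate numbers are shared by the groups in the labels, but same-numbered libraries of Scutellariae Radix and vehicle did not deviate together, with correlations of 0.0114, -0.0262 and 0.0316 across genes. With the replicate block the counts of calls were 1588 against vehicle, 933 against the other extracts and 518 against Pinelliae Tuber, and with the block in a fit of only the 6 libraries 2272 against vehicle. Not every library correlated best with its own number.

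Depth limits genes near 1 CPM, such as ADH1C and PIGR, whose counts per library are few, and differences in CXCL1 and CYP1A2 at this depth. Code set and treatment cannot be told apart against vehicle, and the strand of the counting is unknown.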

Other observations

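Among other cytochrome P450 genes and their regulators, 4 rose and 2 fell of 19 tested. The 4 rises were 2 without Scutellariae Radix replicate 3 or vehicle replicate 1, and the 2 falls were 1 without Scutellariae Radix replicate 2 or 3 or vehicle replicate 1 or 2. CYP4F12, a hydroxylase of fatty acids, averaged 4.33 ± 0.350 CPM in Scutellariae Radix and 2.79 ± 0.242 CPM in vehicle (0.63 ± 0.14, adjusted p = 0.00217, edgeR), and CYP3A5, a general drug oxidase, 95.3 ± 0.871 CPM and 82.7 ± 1.93 CPM in the same order (0.20 ± 0.05, adjusted p = 0.00358). CES2, the intestinal carboxylesterase, was lower at 36.6 ± 0.671 CPM in Scutellariae Radix, against 46.3 ± 3.39 CPM in vehicle (-0.34 ± 0.08, adjusted p = 0.00415). Against the other 5 extracts none of these 3 was called, at 0.28 ± 0.10, 0.05 ± 0.04 and -0.12 ± 0.06.

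Genes of secreted proteins and a target of Wnt changed as well. SERPINE2, a serine protease inhibitor, averaged 11.4 ± 0.427 CPM in Scutellariae Radix and 8.22 ± 0.654 CPM in vehicle (0.48 ± 0.08, adjusted p = 9.2e-05), and was higher than with the other extracts (0.65 ± 0.06, adjusted p = 2.1e-10). GDF15, a stress-induced cytokine of the TGF-beta family, averaged 58.5 ± 2.60 CPM in Scutellariae Radix and 41.3 ± 3.29 CPM in vehicle (0.50 ± 0.12, adjusted p = 0.00536; 0.56 ± 0.09, adjusted p = 2.5e-05 against the other extracts). SP5, a direct target of Wnt, averaged 5.56 ± 0.206 CPM in Scutellariae Radix and 8.83 ± 0.817 CPM in vehicle (-0.68 ± 0.16, adjusted p = 0.00397). GDF15 and SP5 were picked after their values were seen.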
